A study of Mus musculus with 9 samples.

Results

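Kidneys of mice with human CD89 knocked in at Itgam were compared with wild-type kidneys, whether or not the knock-in mice had received a herbal preparation. The comparison set the mean of both knock-in groups, each group weighted equally, against wild type. Of the 9 RNA libraries of the series, 6 were knock-in and 3 were wild type, and 11617 of the 26139 listed genes reached 1 FPKM (fragments scaled to gene length and library depth) in at least 3 libraries and were tested. The WT group was labelled as C57/BL6 mice given saline by gavage. The IgAN group was labelled with the genotype Itgam-IRES-hCD89 and also received saline by gavage. The GQYS group had that genotype and was dosed by gavage every day over 5 months with a Chinese herbal medicine, Gui-qi-yi-shen granules. An IRES lets a second protein be made from the messenger RNA of the host gene, so the transgene is placed under control of Itgam and is expected mainly in myeloid cells. The labels state neither the age or sex of the mice, nor whether the knock-in and wild-type mice were littermates, nor when and in what feeding state kidneys were taken. Whether each of the 3 libraries in a group is 1 mouse is not stated either, and the p-values therefore describe the variation among libraries, part of which may be technical.

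Itgam encodes CD11b, the alpha chain of an integrin of neutrophils, monocytes and macrophages. CD89 is the human Fc receptor for IgA, which mice lack, and its interaction with IgA is one of the processes studied in IgA nephropathy, a disease with IgA deposits in the glomerular mesangium. Depp1 and Angptl4 are known as genes that respond to fasting. In fasting, low insulin releases the FOXO transcription factors and free fatty acids activate the nuclear receptor PPAR-alpha, and both change fuel use in liver, muscle and kidney.

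Depth, recovered from the steps in the FPKM values, was 30564947 to 38161564 gene reads per library. Kidney markers were high in all 9, with Slc34a1 of the proximal tubule between 1437 and 1889 FPKM, Umod of the thick ascending limb between 942 and 1665 FPKM and Nphs1 of podocytes between 3.80 and 6.02 FPKM. Xist, expressed from the inactive X chromosome, did not exceed 0.00730 FPKM, and the Y-linked Ddx3y lay between 5.21 and 10.1 FPKM, so no library stood apart by sex. The first principal component, with 41.9% of the variance, set WT replicate 1 (28.1) and IgAN replicate 1 (23.8) apart from the other 7 libraries (at most 3.09). WT replicate 1 also had 18.6% of its reads on mitochondrially encoded genes, against 7.81% to 13.3% elsewhere. In WT replicate 3 the fat marker Cfd reached 11.4 FPKM (at most 0.158 in the others) and the urothelial marker Upk1a 4.70 FPKM (at most 1.63 in the others).

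The targeted locus was examined first. Itgam stood at 0.340, 0.716 and 0.428 FPKM in the WT libraries, at 0.433, 0.261 and 0.172 in IgAN and at 0.0828, 0.0283 and 0.143 in GQYS. These levels rested on only 5 to 128 reads per library, and the knock-in and WT values overlapped because IgAN replicate 1 exceeded WT replicate 1. The mean was 0.187 ± 0.144 FPKM over the 6 knock-in libraries and 0.495 ± 0.197 over the 3 WT libraries (SD). The difference was -0.33 on the log2(FPKM + 1) scale, with a 2-sided exact permutation p of 0.0476 over the 84 ways to choose 3 of 9 libraries, where 0.0119 is the smallest p possible, and 0.190 after Benjamini-Hochberg adjustment over the 4 leukocyte integrin genes Itgam, Itgax, Itgad and Itgal. None of the other 3 had an exact permutation p below 0.214. No row of the table carried the name FCAR or CD89, so the transgene itself gave no check of the labels.

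Genes beside Itgam on chromosome 7 did not stand out. The 25 nearest tested genes on each side, 50 in all, were taken by RefSeq gene order on GRCm38.p6. Of these, 0 passed limma at an adjusted p of 0.05 in the knock-in comparison. At an unadjusted p below 0.05, 2 were higher (4.95% of all genes), and 1, a clone-named gene, was higher with separate values (2.38% of all genes). The median log2 difference of the 50 was 0.02, and single genes ran from -0.29 to 0.37, while the median of all tested genes was 0.03. A fixed neighbour list had 30 tested genes. Zfp764 and Zfp747, zinc finger genes of this part of the chromosome, were its only 2 members with separate values, both higher (2.38% of all genes). Zfp764 ran from 1.87 to 2.17 FPKM in WT and from 2.30 to 2.97 in the knock-in libraries (0.28, limma adjusted p = 0.603). Of 9 tested genes known to differ in expression between mouse strains, 0 passed the threshold. Apobec3, a cytidine deaminase whose expression varies between strains, was the only one with separate values, where 2.38% of all tested genes were higher. It stood at 0.599 to 0.923 FPKM in WT and 0.980 to 1.93 in the knock-in groups (limma adjusted p = 0.480). Apobec3 was thus below 1 FPKM in every WT library and entered the test through knock-in libraries.

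**Figure D1:**
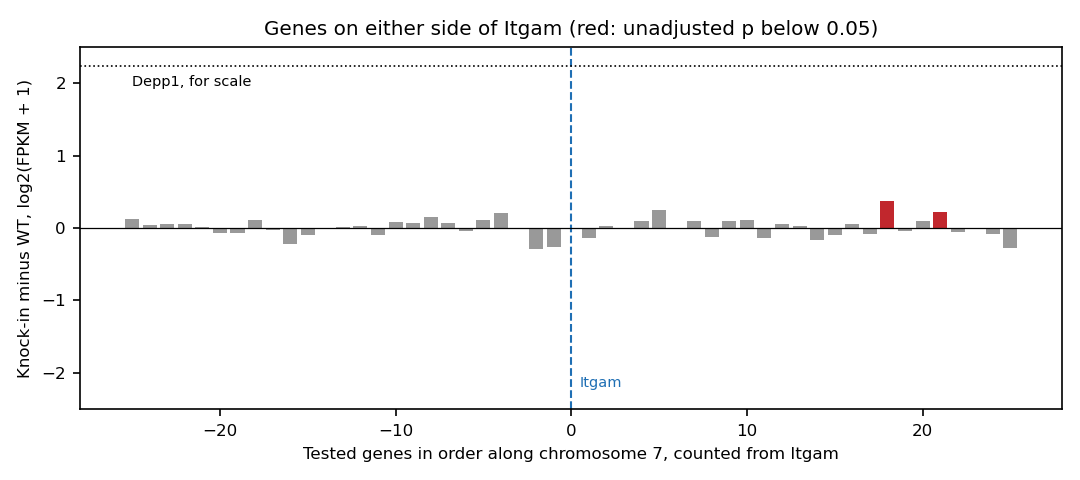
Difference between knock-in and WT kidneys, in log2(FPKM + 1), for the 25 nearest tested genes on each side of Itgam in chromosomal order, with bars in red at an unadjusted limma p below 0.05. The bars stay between -0.29 and 0.37, and the dotted line shows the 2.24 of Depp1 for scale.

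Across all genes the knock-in comparison gave few calls. Depp1, Retnlg, S100a9 and Angptl4 passed limma at an adjusted p of 0.05, 4 of 11617 tested genes (0.0344%), all higher in the knock-in groups. With limma 0 lower genes passed, and 0 did with voom on the recovered reads. Some alternative fits did call lower genes, 217 with library quality weights and at most 2 in any other. Retnlg reached 1 FPKM in the 3 IgAN libraries only, so it entered the test through the group in which it is high. At an unadjusted p below 0.05 there were 796 genes (6.85%), with 575 higher genes (4.95%) and 221 lower genes (1.9%). The FPKM values of the 6 knock-in and the 3 WT libraries did not overlap for 354 genes (3.05%), 276 higher (2.38%) and 78 lower (0.671%). This excess of higher genes depended on scaling: with median-of-ratios size factors 316 genes were separate, 173 higher and 143 lower, and the counts at an unadjusted p below 0.05 were 430 and 335. It was also absent without WT replicate 1, where 943 genes were higher and 1026 lower with separate values. The call of Depp1 held in 22 of 23 alternative fits, the exception being the fit that treats the 6 knock-in libraries as 1 group (adjusted p = 0.0707).

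The knock-in mean can stand for both groups or for 1 of them, and the contrast of GQYS with IgAN bears on this gene by gene. In this balanced design its estimates are uncorrelated with those of the knock-in contrast, but both tests use the same estimated variance. A call shows that the groups differ for a gene. A missing call does not show that they are alike, since each group has only 3 libraries. The contrast of GQYS with IgAN had 23 calls (0.198%). Depp1 and Angptl4 were not among them, with limma adjusted p of 0.167 and 0.740, whereas Retnlg and S100a9 were, both at 0.000269. Depp1 still had an unadjusted limma p of 0.00208 there, and its GQYS values all lay below its IgAN values. Neither Depp1 nor Angptl4 passed limma in GQYS against WT (adjusted p = 0.127 and 0.317). Of the 354 genes with separate values, 40 (11.3%) had an unadjusted p below 0.05 between GQYS and IgAN, close to the 10.4% of all tested genes. Side by side, IgAN against WT had 41 calls (0.353%) and GQYS against WT had 0 (0.0%), with 515 genes at an unadjusted p below 0.05 (4.43%), and both comparisons share the 3 WT libraries.

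**Figure D2:**
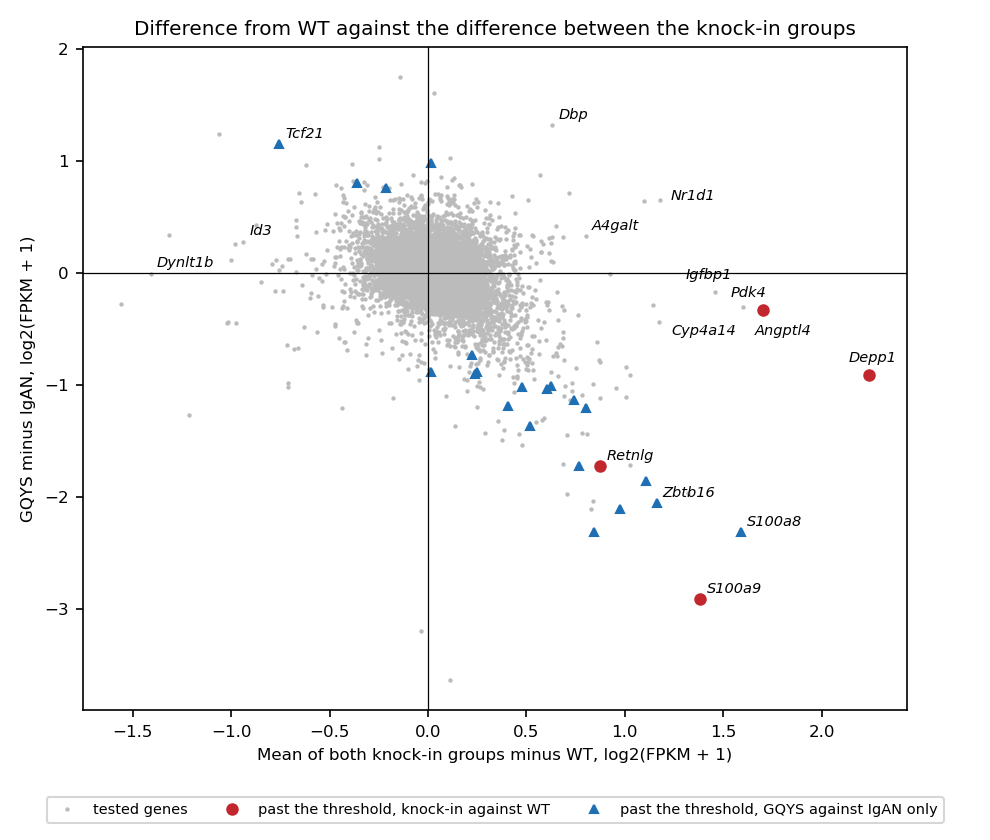
Each point is a tested gene, with the mean of both knock-in groups minus WT on the x axis and GQYS minus IgAN on the y axis, both in log2(FPKM + 1). Depp1 (2.24 on the x axis, -0.91 on the y axis) and Angptl4 (1.70 and -0.33) lie farthest right, whereas S100a9, S100a8, Retnlg and Zbtb16 lie low, at -2.91, -2.31, -1.72 and -2.06 on the y axis.

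Depp1, a FOXO-induced gene linked to autophagy that rises on fasting, showed the largest called difference. It stood at 2.24, 3.44 and 3.17 FPKM in WT, at 26.5, 25.5 and 21.5 in IgAN and at 15.1, 8.28 and 15.6 in GQYS. Every knock-in library lay above every WT library, and the lowest of them, GQYS replicate 2, was still above the highest WT value. The mean was 6.35-fold that of WT, and the log2 difference was 2.24 ± 0.19 (SE; limma adjusted p = 0.00451). Against WT alone the log2 difference was 2.70 in IgAN and 1.79 in GQYS. All 3 GQYS values lay below all 3 IgAN values, a difference of -0.91 that did not pass limma (adjusted p = 0.167). With any single library left out the adjusted p stayed between 0.000273 and 0.0428.

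Angptl4, a secreted inhibitor of lipoprotein lipase and a PPAR target, rose in the same comparison. Its levels were 20.3, 18.1 and 13.0 FPKM in WT, 81.8, 50.5 and 63.7 in IgAN and 38.9, 69.3 and 48.4 in GQYS, again without overlap. The knock-in mean was 3.43-fold that of WT (log2 difference 1.70 ± 0.21 SE; limma adjusted p = 0.0329), from 1.87 in IgAN and 1.53 in GQYS. The call ended on leaving out any 1 of 7 libraries, the adjusted p being 0.111 without WT replicate 2, 0.163 without WT replicate 3, 0.0622 and 0.135 without IgAN replicates 1 and 3, and 0.05003, 0.0658 and 0.126 without GQYS replicates 1, 2 and 3. Fat also expresses Angptl4, and the summed level of 12 adipocyte markers was 80.2 to 142.6 FPKM in WT, 66.7 to 83.9 in IgAN and 78.9 to 107.1 in GQYS, and these ranges overlapped. The part of fat in this result was not tested. In whole tissue, more cells of a type and more RNA per cell cannot be told apart, here and in all results that follow.

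Pdk4 and Cyp4a14, chosen by p from the list of fatty acid oxidation genes and PPAR-alpha targets, did not pass the threshold. Pdk4, a kinase that shuts off pyruvate dehydrogenase and so spares glucose, stood at 5.33, 7.88 and 4.57 FPKM in WT, 16.0, 16.3 and 39.9 in IgAN and 14.6, 34.9 and 10.4 in GQYS. Its groups did not overlap, but the knock-in libraries differed widely among themselves (log2 difference 1.60 ± 0.38 SE; limma adjusted p = 0.319). Cyp4a14, a fatty acid omega-hydroxylase and PPAR-alpha target, was separate too, with 7.41, 12.3 and 6.35 FPKM in WT, 17.9, 29.7 and 24.7 in IgAN and 14.2, 17.1 and 20.8 in GQYS (1.17 ± 0.21; adjusted p = 0.194). It has close paralogs, and the counting could have split reads among them.

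Igfbp1, a binding protein of insulin-like growth factors that insulin represses, and Sesn2, a stress-induced regulator of mTORC1, did not pass either. Igfbp1 was chosen after its values were seen. It stood at 0.542, 1.84 and 1.51 FPKM in WT, 9.68, 4.94 and 3.27 in IgAN and 5.69, 3.11 and 5.98 in GQYS, with no overlap (1.46 ± 0.30; limma adjusted p = 0.225). Sesn2 stood at 6.78, 13.3 and 14.2 FPKM in WT, 24.8, 24.9 and 16.5 in IgAN and 27.1, 15.3 and 23.8 in GQYS, also with no overlap (0.92 ± 0.25; adjusted p = 0.411). Without the 2 libraries that stand apart, its log2 difference was 0.57. Igfbp1 is abundant in liver, and the summed level of 14 adrenal and liver markers was 112.3 to 139.3 FPKM in WT, 77.5 to 156.1 in IgAN and 54.3 to 117.5 in GQYS.

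**Figure D3:**
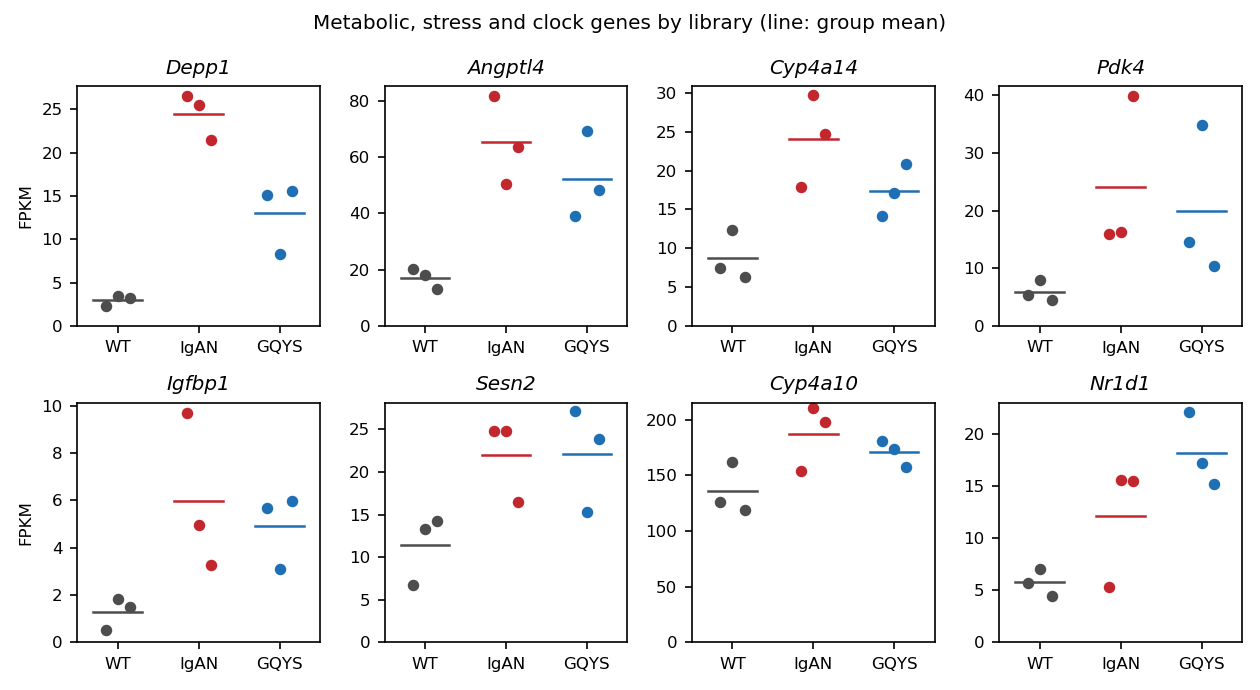
FPKM of 8 genes in each of the 3 WT, 3 IgAN and 3 GQYS libraries (points, linear axes from 0) with group means (lines). For Depp1, Angptl4, Cyp4a14, Pdk4, Igfbp1 and Sesn2 all 6 knock-in points lie above all 3 WT points, while Cyp4a10 and Nr1d1 overlap WT, Nr1d1 through the first IgAN library alone.

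The promoters of these genes are where FOXO factors, nuclear receptors and insulin response elements would be sought, and RefSeq promoter entries (GRCm38.p6, the authors' build being GRCm39) were matched for 4 of 6 genes searched: Depp1, Pdk4, Igfbp1 and Sesn2. The windows of Depp1, the gene with the largest difference, and Igfbp1, the one with a match, span 300 bases, mostly before the start, and are given 5′ to 3′ on the gene's strand (plus for both), at chr6:116650434-116650733 for Depp1 and chr11:7197537-7197836 for Igfbp1. Capitals mark the letters CAAAACA, the core of the insulin response element.
Depp1: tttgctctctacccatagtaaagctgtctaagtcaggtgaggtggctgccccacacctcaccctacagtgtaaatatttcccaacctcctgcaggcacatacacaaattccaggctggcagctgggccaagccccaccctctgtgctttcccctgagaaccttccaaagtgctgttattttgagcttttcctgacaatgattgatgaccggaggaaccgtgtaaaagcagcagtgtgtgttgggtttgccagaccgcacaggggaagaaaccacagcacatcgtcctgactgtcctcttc
Igfbp1: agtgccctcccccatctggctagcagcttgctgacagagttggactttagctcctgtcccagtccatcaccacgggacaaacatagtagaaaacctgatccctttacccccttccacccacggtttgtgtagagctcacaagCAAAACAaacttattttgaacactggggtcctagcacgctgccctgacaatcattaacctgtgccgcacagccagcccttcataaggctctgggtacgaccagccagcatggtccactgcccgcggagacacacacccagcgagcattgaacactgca

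The motifs were chosen after the expression values were seen, and both strands were searched. CAAAACA occurred once in the Igfbp1 window and in none of the other 3, and 6.28% of 32851 RefSeq promoters of this length contain it. As exact letters, the forkhead motif GTAAACA (3.65% of promoters) and the nuclear receptor half-site AGGTCA (16.3%) were in none of the 4 windows. Neither were the glucocorticoid half-site AGAACA (19.0%) and the E-box CACGTG (7.15%). Variants of these letters were not searched, so the windows may still hold related sites. A match is a description of letters, and the absence of exact letters covers this window only.

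In the whole list of fatty acid oxidation genes and PPAR-alpha targets, Angptl4 alone of 44 tested genes passed the threshold. At an unadjusted p below 0.05, 8 were higher, where 4.95% of all tested genes were, and 1 was lower, where 1.9% were. With separate values 4 were higher (Angptl4, Pdk4, Cyp4a14 and Acot2), where 2.38% of all genes were. The log2 difference was positive for 34 of the 44, as for 6734 of all 11617, and the median was 0.06 against 0.03 for all tested genes. Besides the genes above, the higher ones included Cyp4a10, a paralog of Cyp4a14 (0.40), Acot1, an acyl-CoA thioesterase (0.41), Acaa1b, a peroxisomal thiolase (0.25), and Fabp1, a fatty acid binding protein (0.63), and the lower one was Crot, a peroxisomal carnitine acyltransferase (-0.33). Fabp1 was low throughout, between 0.398 and 2.51 FPKM. It was below 1 FPKM in every WT library and entered the test through knock-in libraries.

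Among other genes with separate values, the smallest p-values belonged to genes with varied functions, and none of them passed the threshold. A4galt, the synthase of the glycolipid Gb3, stood at 3.69, 5.56 and 4.01 FPKM in WT, 8.29, 6.92 and 6.89 in IgAN and 9.93, 9.79 and 8.73 in GQYS (log2 difference 0.80 ± 0.12 SE; limma adjusted p = 0.0999). Tgif1, a homeodomain repressor of SMAD signalling, was at 2.19, 2.31 and 1.83 FPKM in WT, 5.76, 4.63 and 4.63 in IgAN and 4.70, 3.11 and 3.22 in GQYS (0.76 ± 0.13; adjusted p = 0.144). Plat, the tissue plasminogen activator, was at 20.7, 18.1 and 18.1 FPKM in WT, 34.4, 26.8 and 30.8 in IgAN and 25.2, 26.4 and 26.2 in GQYS (0.55 ± 0.10; adjusted p = 0.166). In all 3 genes the lowest knock-in library was above the highest WT library. Eps8l1, an actin regulator (0.68), Ipmk, an inositol polyphosphate kinase (0.63), Prss23, a serine protease (0.54), and Cbx2, a Polycomb chromobox protein (0.43), followed with adjusted p between 0.166 and 0.209. Eps8l1 and Cbx2 were below 1 FPKM in every WT library and entered the test through the knock-in libraries.

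Casp4 and Maff met the criterion of separate values with most of the difference in IgAN. Casp4, the inflammatory caspase that senses cytosolic lipopolysaccharide, was at 0.649, 0.914 and 0.608 FPKM in WT, 4.46, 3.13 and 3.17 in IgAN and 1.001, 0.926 and 1.01 in GQYS. The GQYS values thus lay only just above WT, and the difference between GQYS and IgAN passed limma (-1.201, adjusted p = 0.00669). Maff, a small MAF transcription factor, was at 0.192 to 0.674 FPKM in WT, 1.95 to 4.65 in IgAN and 0.747 to 1.12 in GQYS (adjusted p = 0.106 between the knock-in groups). Both genes were below 1 FPKM in every WT library and entered the test through knock-in libraries.

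The lower genes were led by Id3, an inhibitor of basic helix-loop-helix transcription factors and a target of BMP signalling. It stood at 84.2, 60.0 and 58.9 FPKM in WT, at 29.8, 30.2 and 33.3 in IgAN and at 47.2, 30.2 and 38.2 in GQYS. The groups did not overlap, and the knock-in mean was 0.515 of the WT mean (log2 difference -0.94 ± 0.15 SE; limma adjusted p = 0.121). The differences from WT were -1.08 in IgAN and -0.80 in GQYS, and the adjusted p with single libraries left out ran from 0.126 to 0.309. With the mitochondrial share as a covariate Id3 passed limma (-0.84, adjusted p = 0.0482).

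All 4 Id genes had lower means in the knock-in groups, at unadjusted p below 0.05 and with 0 of them past the adjusted threshold. Id1 stood at 30.3, 19.2 and 16.2 FPKM in WT, 10.4, 12.8 and 11.2 in IgAN and 17.7, 9.33 and 10.8 in GQYS, with GQYS replicate 1 inside the WT range (log2 difference -0.79; limma adjusted p = 0.426). Id2 was separate, at 232 to 259 FPKM in WT against 141 to 211 in the knock-in libraries (-0.43; adjusted p = 0.477). Id4 overlapped, with 7.51 to 8.90 FPKM in WT, 2.47 to 4.45 in IgAN and 4.58 to 8.35 in GQYS (-0.65; adjusted p = 0.477). Id2 and Id4 were picked with their values already known.

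The Id genes belong to a list of 23 tested genes of BMP and TGF-beta signalling. At an unadjusted p below 0.05, 5 were higher (4.95% of all genes) and 4, the Id genes themselves, lower (1.9% of all genes). Of the 23, 12 lay above 0, and the median was 0.00. The ligand Bmp6, which regulates iron and is made by endothelium and other cells, was among the higher ones. It reached at most 16.7 FPKM in WT, against 21.6, 17.6 and 22.0 in IgAN and 21.2, 24.2 and 19.8 in GQYS (0.55 ± 0.12 SE; limma adjusted p = 0.282). Tgfb1, the profibrotic ligand, ran from 4.28 to 5.86 FPKM in WT and from 6.13 to 10.04 in the knock-in libraries (0.47; adjusted p = 0.470). Bmp4 ran from 11.3 to 13.0 FPKM in WT and from 13.1 to 16.2 in the knock-in libraries (0.25; adjusted p = 0.690).

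**Figure D4:**
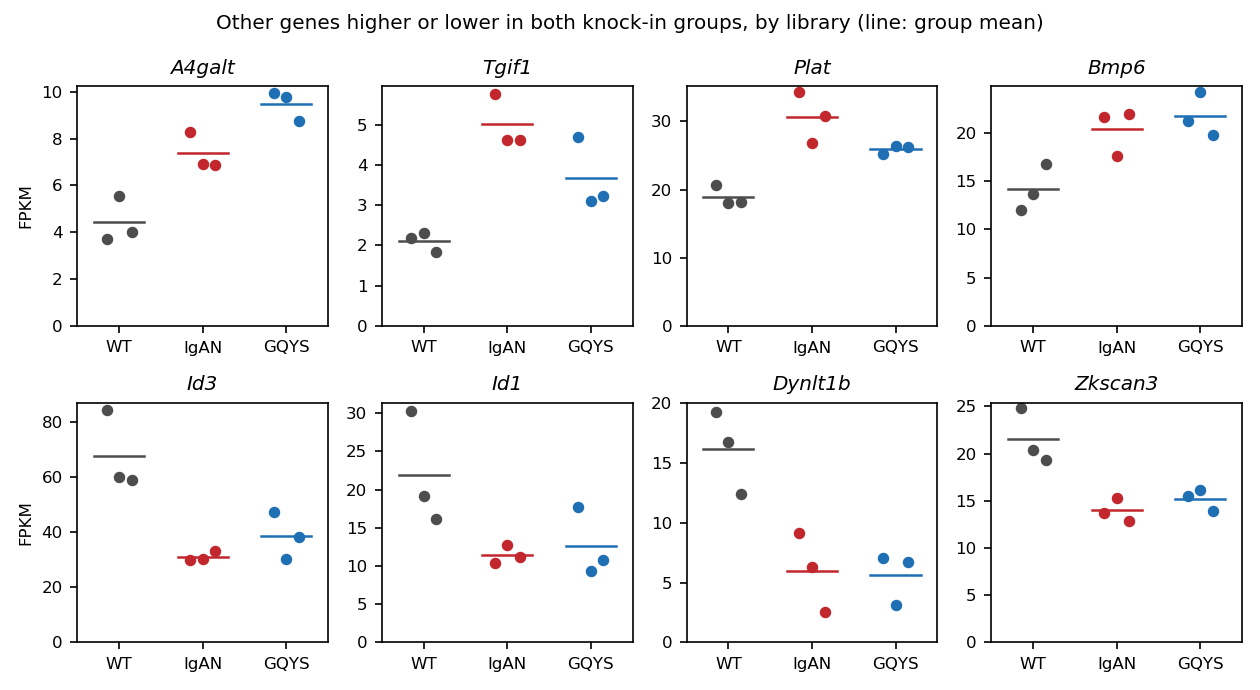
FPKM of 4 genes with higher values (upper row) and 4 with lower values (lower row) in the knock-in groups, for each library (points, linear axes from 0) with group means (lines). The ranges of the 6 knock-in and 3 WT points are separate except for Id1, whose first GQYS point (17.7) lies within the WT range.

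Dynlt1b, a dynein light chain, had the same log2 difference of -1.41 in IgAN and in GQYS. Its levels were 19.2, 16.8 and 12.5 FPKM in WT, 9.16, 6.27 and 2.52 in IgAN and 7.04, 3.17 and 6.71 in GQYS, without overlap (-1.41 ± 0.32 SE; limma adjusted p = 0.296). The gene has near-identical copies that could share its reads, so this value is uncertain. Zkscan3, a zinc finger repressor of autophagy genes, was at 24.8, 20.4 and 19.4 FPKM in WT and between 12.9 and 16.2 in the 6 knock-in libraries (-0.53 ± 0.10; adjusted p = 0.209). It differed little between IgAN and GQYS (0.11).

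The other lower genes named by p among those with separate values ran from -0.29 to -0.60 on the log2 scale. They were Inka1, an inhibitor of the kinase PAK4 (-0.46), Pacc1, a proton-activated chloride channel (-0.48), Cbr2, a carbonyl reductase (-0.60), Insl6 (-0.49), Glcci1, a glucocorticoid-induced transcript (-0.39), Pnrc2, a factor of mRNA decapping (-0.29), Orc6, a subunit of the origin recognition complex (-0.34), Gpc1, a heparan sulfate proteoglycan (-0.40), and Sirpb1a, a myeloid signal-regulatory protein with close paralogs (-0.44). Their limma adjusted p lay between 0.225 and 0.393. Sirpb1a was below 1 FPKM in every knock-in library and entered the test through the WT libraries. Inka1 entered through WT too, since of the knock-in libraries only GQYS replicate 3 (1.03 FPKM) reached 1 FPKM. Pnrc2 stood at 39.3 to 40.2 FPKM in WT, 29.2 to 31.3 in IgAN and 34.1 to 35.9 in GQYS.

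The remaining calls, S100a9 and Retnlg, came from IgAN alone. S100a9, a subunit of the neutrophil protein calprotectin, stood at 1.63, 1.80 and 0.679 FPKM in WT, 16.5, 16.7 and 13.5 in IgAN and 0.911, 1.52 and 1.22 in GQYS. Retnlg, a resistin-like gene of neutrophils, was at 0, 0 and 0.160 FPKM in WT, 2.47, 2.78 and 2.26 in IgAN and 0, 0.131 and 0.0525 in GQYS. The GQYS libraries lay within the WT range for both genes, so the knock-in means (log2 differences 1.38 and 0.87; limma adjusted p = 0.0329 and 0.0228) describe neither group. Both calls were lost in most fits that left out 1 library, with adjusted p up to 0.126 for S100a9 and 0.117 for Retnlg. Among those fits S100a9 stayed past the threshold only without WT replicate 1 (0.0416) and Retnlg only without IgAN replicate 2 (0.0418). The other calprotectin subunit, S100a8, had log2 differences of 2.74 in IgAN and 0.43 in GQYS.

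These genes belong to a list of monocyte and neutrophil markers with 9 tested members. The threshold was passed by 2 (0.0344% of all genes), and 1 of these, Retnlg, entered the test through IgAN alone. At an unadjusted p below 0.05, 5 were higher (4.95% of all genes), and 0 were separate from WT (2.38% of all genes were higher and separate). The list median was 0.78 in IgAN and 0.01 in GQYS. The knock-in median of 0.38 was 0.01 over the members with 1 FPKM in all 9 libraries. The summed level of the 22 listed genes in the table was 35.0 to 66.5 FPKM in WT, 62.0 to 104.9 in IgAN and 46.5 to 63.4 in GQYS. Of the defining neutrophil genes, Ly6g was listed at 0 in all WT and GQYS libraries and Elane at 0 in all 9. Among 22 tested genes of macrophages and dendritic cells, the resident cells in which Itgam would also be expressed, 0 were higher or lower at an unadjusted p below 0.05, and the median was 0.04. Their summed level was 480.2 to 700.4 FPKM in WT, 626.2 to 764.5 in IgAN and 531.5 to 645.6 in GQYS.

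Several stress and injury lists had higher medians in IgAN than in GQYS, a difference that was not tested. Of 26 tested genes of endoplasmic reticulum stress, 18 were higher in the knock-in comparison at an unadjusted p below 0.05, where 4.95% of all tested genes were, and 4 had separate values, where 2.38% of all genes did. The list median was 0.44, from 0.75 in IgAN and 0.22 in GQYS. Hspa5, the chaperone BiP, stood at 268, 201 and 291 FPKM in WT, 469, 529 and 459 in IgAN and 426, 297 and 299 in GQYS, so the lowest GQYS value was only just above WT (0.69; limma adjusted p = 0.277). Herpud1, a component of the degradation machinery of the endoplasmic reticulum, overlapped between GQYS (95.9 to 126 FPKM) and WT (83.6 to 114), with 236 to 261 in IgAN. The transcription factor Atf5 (0.60), the chaperone Hsp90b1 (0.28) and Sesn2 were the other members with separate values.

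In the heat shock list 12 of 22 tested genes were higher at an unadjusted p below 0.05 (4.95% of all genes) and 0 had separate values, with medians of 0.67 in IgAN and 0.11 in GQYS. Hsp90ab1, a cytosolic chaperone, was at 458 to 577 FPKM in WT, 743 to 844 in IgAN and 547 to 622 in GQYS. The tubular injury and repair list, 27 tested genes, gave 8 higher at an unadjusted p below 0.05 (4.95% of all genes) and 0 separate, with medians of 0.70 and 0.04. Its knock-in median of 0.41 was 0.20 without IgAN replicate 1, whose summed level over the list was 3380 FPKM against 1963 and 2134 in the other IgAN libraries. Clu, clusterin, a gene raised in injured tubules, ran from 56.9 to 90.9 FPKM in WT, 162 to 244 in IgAN and 75.0 to 127 in GQYS. In both lists the GQYS values overlapped WT, so the knock-in mean reflected IgAN.

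The inflammatory list of cytokines and NF-kB genes had 13 of 24 tested genes higher at an unadjusted p below 0.05 (4.95% of all genes). Its medians were 0.69 in IgAN and 0.07 in GQYS. The cytokine Csf1 and the adhesion molecules Vcam1 and Icam1 were at the WT level in GQYS, with log2 differences from WT of -0.17, 0.09 and 0.12. In IgAN, Vcam1 and Icam1 had 1.12 and 1.13, and Csf1 ran from 6.46 to 7.60 FPKM against 2.37 to 2.64 in WT. Of the 24 genes, 5 had separate values in all 6 knock-in libraries, where 2.38% of all tested genes did. Apart from Casp4 these were the chemokine Cx3cl1, the NF-kB subunits Nfkb1 and Rela and the TNF receptor Tnfrsf1a. Cx3cl1 stood at 22.5, 23.3 and 22.6 FPKM in WT, 49.3, 31.6 and 37.0 in IgAN and 25.4, 26.3 and 27.2 in GQYS (0.47; limma adjusted p = 0.398). Tnfrsf1a stood at 17.8, 19.8 and 21.0 FPKM in WT, 37.0, 23.4 and 28.2 in IgAN and 22.9, 23.1 and 23.9 in GQYS (0.40; adjusted p = 0.560). The GQYS values of these genes were above WT by a narrow margin, with log2 differences of 0.20 and 0.24.

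The glucocorticoid response list also split. Of 21 tested genes, 7 were higher at an unadjusted p below 0.05, where 4.95% of all tested genes were. Angptl4, Pdk4 and Pik3ip1, 3 of the 21, were higher with separate values, where 2.38% of all genes were. The list medians were 0.51 in IgAN and -0.00 in GQYS. Zbtb16, a glucocorticoid-induced transcription factor, stood at 0.266 to 0.436 FPKM in WT, 3.88 to 6.46 in IgAN and 0.272 to 0.914 in GQYS, and the difference between GQYS and IgAN passed limma (-2.06, adjusted p = 0.00193). This gene was above 1 FPKM in IgAN alone and entered the test through that group. For Cebpd, an acute-phase transcription factor, the difference between GQYS and IgAN passed limma too (-1.72, adjusted p = 0.0123). Cebpd was above 1 FPKM in every library, with 2.003 to 3.07 FPKM in WT and 2.03 to 2.18 in GQYS.

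Vascular, interferon and ribosomal genes had small positive medians in both groups. Of 24 tested endothelial genes, 5 were higher at an unadjusted p below 0.05 (4.95% of all genes) and 3 had separate values (2.38% of all genes). The median was 0.13, from 0.03 in IgAN, near the 0.02 of all genes there, and 0.25 in GQYS, and it was 0.06 without WT replicate 1. Besides Plat these were Esam, an adhesion molecule, at 10.8 to 13.5 FPKM in WT and 14.0 to 17.7 in the knock-in libraries (0.35), and Eng, endoglin, a TGF-beta co-receptor, at 26.7 to 29.9 and 31.6 to 40.2 (0.28). Of 35 tested interferon and MHC class I genes 31 had positive log2 differences, where 6734 of all 11617 tested genes did. At an unadjusted p below 0.05, 3 were higher (4.95% of all genes). The median was 0.14, or 0.11 with size factors. Bst2, an antiviral membrane protein, was the only separate one, where 2.38% of all genes were higher and separate. It stood at 10.3 to 16.9 FPKM in WT and 17.2 to 22.4 in the knock-in libraries. All 44 ribosomal protein genes had positive log2 differences, where 6734 of all 11617 tested genes did. Their median was 0.10, or 0.07 with size factors, and 2 had an unadjusted p below 0.05, a share near the 4.95% of all genes. The median was 0.22 without WT replicate 1 and 0.05 without IgAN replicate 1. Rps3 was at 199 to 202 FPKM in WT and 211 to 234 in the knock-in libraries.

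Podocyte and matrix genes gave different counts. Of 18 tested podocyte genes 0 were higher and 1 was lower at an unadjusted p below 0.05, where 4.95% and 1.9% of all genes were. Slightly higher separate values were seen in 3, where 2.38% of all genes were higher and separate. Among the 3 was Synpo, a podocyte actin-binding protein, at 5.29 to 5.75 FPKM in WT and 6.02 to 7.69 in the knock-in groups. The lower one, Tcf21, a transcription factor of podocytes and stroma, came from IgAN, at 18.2 to 24.7 FPKM in WT, 6.23 to 9.44 in IgAN and 15.9 to 20.9 in GQYS. In the fibroblast and matrix list, 10 of 40 tested genes were higher and 3 lower at an unadjusted p below 0.05. Over all genes these shares were 4.95% and 1.9%. Positive log2 differences were seen in 30 of the 40, and in 6734 of all 11617 tested genes. The type IV collagen chain Col4a1, a basement membrane component, was separate, at 27.5 to 35.7 FPKM in WT, 41.2 to 54.7 in IgAN and 38.0 to 40.1 in GQYS (0.44; limma adjusted p = 0.383). The median of this list was 0.38 in IgAN and 0.05 in GQYS, and the knock-in median of 0.26 was 0.13 without WT replicate 3 and 0.15 without IgAN replicate 1.

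Tubular segment genes and the genes of IgA handling gave few differences. Of 38 tested proximal tubule transport genes 2 were higher at an unadjusted p below 0.05, near the 4.95% of all genes, and the median was 0.02. Of 31 distal and collecting duct genes and 19 intercalated cell genes, 0 were higher or lower, with medians of 0.04 and 0.04. Among 14 genes of IgA handling and CD89 partners 0 passed limma. At an unadjusted p below 0.05, 1 was higher (4.95% of all genes) and 2 lower (1.9% of all genes). The higher one was B4galt1, a galactosyltransferase, at 8.11, 12.4 and 10.8 FPKM in WT, 22.97, 16.1 and 18.3 in IgAN and 14.1, 14.3 and 11.2 in GQYS, with GQYS replicate 3 inside the WT range (0.57; limma adjusted p = 0.398). Tfrc, the transferrin receptor, which also binds IgA1 in humans, was lower, at 14.0, 19.2 and 23.1 FPKM in WT, 10.2, 14.7 and 12.7 in IgAN and 11.8, 11.3 and 12.9 in GQYS, with IgAN replicate 2 inside the WT range (-0.55; limma adjusted p = 0.458). Jchain, the joining chain of polymeric IgA and IgM, ran from 7.08 to 24.4 FPKM in WT and from 1.23 to 10.1 in the knock-in libraries, and its high WT value was that of WT replicate 1.

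**Figure D5:**
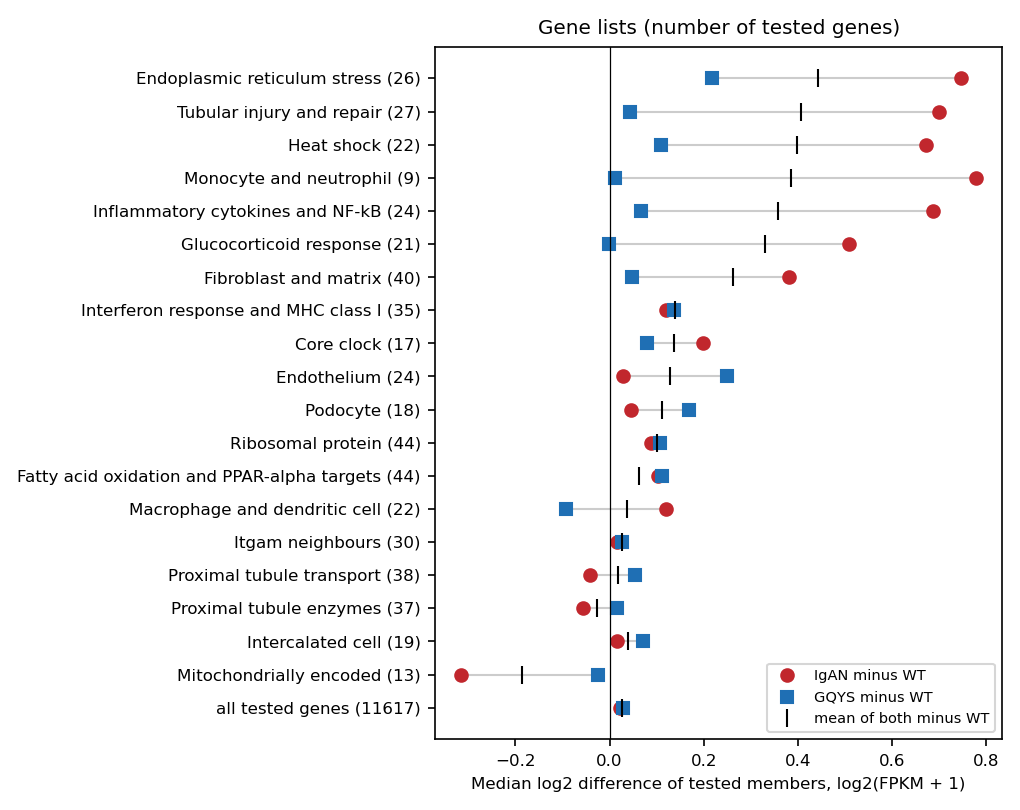
Median log2 difference from WT of the tested genes of 19 lists and of all tested genes, in log2(FPKM + 1), for IgAN (circles), GQYS (squares) and the knock-in mean (vertical marks), with the number of tested genes in brackets. Stress, injury and inflammatory lists have IgAN medians up to 0.78 and GQYS medians of at most 0.22, while the interferon and ribosomal medians nearly coincide.

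Among clock genes, Nr1d1 overlapped WT through 1 library and Dbp was high in 1 group. Nr1d1, the circadian repressor REV-ERB-alpha, stood at 5.71, 7.09 and 4.48 FPKM in WT, 5.36, 15.6 and 15.5 in IgAN and 22.1, 17.2 and 15.2 in GQYS. Only IgAN replicate 1 was at the WT level, and without it the gene passed limma (log2 difference 1.41, adjusted p = 0.0492), against 1.18 and an adjusted p of 0.351 with all libraries. Dbp, another clock output, ran highest in GQYS (4.67 to 7.89 FPKM, against 1.15 to 2.39 in WT and 1.10 to 2.41 in IgAN). Of 17 tested core clock genes 3 were higher at an unadjusted p below 0.05 (4.95% of all genes), and the median was 0.14. The 13 mitochondrially encoded genes had a median of -0.19, which was 0.16 without WT replicate 1, the library with the high mitochondrial share.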

How the data were processed

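Kidney RNA of 9 libraries was extracted with TRIzol and made into libraries using the VAHTS Universal V6 kit, according to the protocols. A single table of FPKM values was deposited. Tools named in the submitters' processing notes, without roles, are HISAT2, HTSeq, fastp, DESeq2 and R 3.2.0, with build GRCm39. The sources used here give no annotation or strand setting, so overlapping and antisense genes cannot be told apart, and FPKM moves with the share taken by a few abundant genes. Columns were matched to samples by the library names in the labels.

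The FPKM steps gave whole reads for 26139 genes (100.0%) within a tolerance of 0.03 reads. For genes seen in few libraries this holds easily. No libraries were identical. Limma 3.58.1 in R 4.3.3 was fitted to log2(FPKM + 1), a pseudocount of 1, with 3 group means over all 9 libraries and empirical Bayes with a mean-variance trend. Genes with at least 1 FPKM in at least 3 libraries were tested, with Benjamini-Hochberg adjustment over all tested genes per contrast and a threshold of 0.05. Log2 differences understate changes of low genes. The fit was tested on simulated data. Itgam, below the filter, was tested by exact permutation.

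Genes were named by size and p among genes with separate values, with those alike in both knock-in groups, Itgam with its neighbours, sex markers and up to 4 members of smallest p per list. Predicted genes were counted and not named, and some genes that the rule names are not reported here. Of the list members beyond these 4, those named were chosen after their values were seen, as was Igfbp1. The members and the 45 gene lists were chosen with earlier results of these data known. Lists are described by counts and medians, with no test. Alternatives covered pseudocount, filter, scaling, replicate block, grouping, library weights, trend, mitochondrial share, voom on the recovered reads and left-out libraries. Python 3.11.15 drew the figures.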

Additional observations from a re-analysis of the deposited data

Results flagged for a closer look

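Among the named genes, a single library stood far from the other 5 knock-in libraries in 5 cases. These were Cbr2 in IgAN replicate 2 (2.501 FPKM, near the WT level), Orc6 in GQYS replicate 3 (3.65 FPKM), Tgfb1 in IgAN replicate 1 (10.04 FPKM), Cdkn1a, a cell cycle inhibitor, in IgAN replicate 1 (27.9 FPKM) and Acot2 in GQYS replicate 2 (22.5 FPKM). Chance produces some such cases among the 94 genes examined.

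The difference from WT itself differed between the knock-in groups, by the limma contrast of GQYS with IgAN at an adjusted p of 0.05, for a further set of genes. The log2 difference GQYS minus IgAN was -2.91 for S100a9, -2.31 for S100a8 and -1.72 for Retnlg among the neutrophil genes. It was -2.31 for the chemokine Ccl2, -1.37 for Csf1, -1.03 for Vcam1, -1.01 for Icam1 and -1.201 for Casp4 among the inflammatory genes. It was -2.06 for Zbtb16, -1.86 for Socs3, a feedback inhibitor of cytokine signalling, -1.72 for Cebpd and -1.13 for Herpud1. Tcf21 was higher in GQYS, by 1.15. For these genes the mean of both knock-in groups is not a value that either group had. Retnlg, Casp4, Zbtb16 and Socs3 were below 1 FPKM in every WT library and entered the test through knock-in libraries.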

How the results depend on the processing

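The number of genes past the threshold in the knock-in comparison, 4 with the fit described, was 1 with a pseudocount of 0.1, 1 with the filter of 1 FPKM in all 9 libraries, 2 after quantile normalization, 1 with voom on the recovered reads, 0 with the 6 knock-in libraries as 1 group (600 at an unadjusted p below 0.05), 10 with the mitochondrial share as a covariate, 9 without WT replicate 1 and IgAN replicate 1 together and 487 with library quality weights (270 higher, 217 lower). Leaving out 1 library gave 1 to 5. The count of genes with separate values, 354, became 414 to 1969 with 1 library left out, with 1969 without WT replicate 1, 747 without WT replicate 2 and 836 without WT replicate 3. The count for GQYS against IgAN, 23, became 6 to 54 with 1 library left out and 63 without the 2 libraries together. The cause of these differences was not tested. With the replicate number as a block, 7 genes passed in the knock-in comparison and 26 between GQYS and IgAN. Same-numbered libraries correlated from -0.36 to 0.58 in their deviations from the group means, so the numbers were not taken as pairs. Among 2146 values of 94 named genes under 23 alternatives, 0 changed direction, 72 gained and 41 lost a call. These genes were chosen from the same data and the alternatives refit the same libraries, so the 0 was close to settled in advance. Of 1011 list medians 14 moved by more than the replicate spread. The urothelium list had no tested gene with the filter on all 9 libraries and gave no value there.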
